A study of Mus musculus with 48 samples.

Results

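The genes described here are 36 symbols known as direct targets of the transcription factor p53 or as parts of its feedback loop, followed across p53 genotype, macrophage polarization and treatment with the compound AP-3-84. Members were taken by symbol: 35 of the 36 matched 1 row each among the 51789 genes of the count table. The remaining symbol, Tap63, names a protein isoform of p63 and no gene, so it has no value. Of the 35, 32 had enough counts to be tested in bone marrow-derived macrophages, and all 35 were tested in peritoneal macrophages. Perp, Eda2r and Ddb2 were the 3 not tested in the bone marrow cells.

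RNA was measured by 3′ tag sequencing (1 read marks the 3′ end of 1 transcript) in 48 libraries, which fall into 16 groups of 3. Before RNA was taken, cells had 4 h of AP-3-84 at 10 µM or of DMSO as vehicle; what the compound does is not described in the labels. The 12 bone marrow groups came from wild-type (WT) or p53 knockout (KO) B6 mice, whose marrow was cultured with M-CSF (10 ng/mL) over 6 days. M0 cells had no further cytokine. M1 cells had LPS (100 ng/mL) plus IFN-γ (50 ng/mL) during 24 h, and M2 cells had IL-4 plus IL-13 (each 10 ng/mL) for as long. The genotype field of the labels calls all marrow samples wild-type, and the sample titles, which separate WT from KO, were followed. The ascites groups were F4/80+ cells sorted from ascites of mice with the genotype label B6(Cg)-Tyrc-2J/J, 45 days after injection of ID8 ovarian tumour cells, and the thio groups were F4/80+ cells sorted from wild-type C57BL/6 mice 4 days after 1 mL of 3% thioglycollate. The peritoneal groups carry no p53 knockout, so the compound could be tested without p53 only in marrow cells. Which part of Trp53 was deleted is not given, nor whether the 3 libraries of a group came from separate mice or cultures. All p-values therefore measure the spread between these libraries, which may be technical.

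As background, p53 is a transcription factor that is kept scarce by the ubiquitin ligase Mdm2 and held inactive by Mdm4. Stress that blocks these inhibitors lets p53 bind pairs of short half-sites near its targets, which include Mdm2 itself, so that the loop limits its own output. The targets stop the cell cycle (Cdkn1a, which encodes p21), start mitochondrial or receptor-driven death (Bax, Bbc3, Pmaip1, Fas), dampen growth signals (Phlda3, Sesn1) or supply repair. Many of them also answer to other transcription factors, and Cdkn1a is expressed during macrophage differentiation.

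Totals ran from 3081707 to 4645148 counts in the marrow libraries and from 15532373 to 19417581 in the peritoneal libraries. Levels are CPM, counts scaled to a common library size after TMM normalization. Differences are log2 fold changes with their standard error (SE) from edgeR's quasi-likelihood test, and a gene was called where its Benjamini-Hochberg adjusted p over all genes tested was below 0.05. All 8 macrophage markers were present in every group, with a summed level from 5970 to 49118 CPM. The lowest sums were in the KO M2 vehicle libraries (5970 to 18476, against 24997 to 30977 in WT M2 vehicle). Neutrophil markers summed to 3954 CPM in WT M2 vehicle replicate 1 and to 3285 in KO M2 vehicle replicate 3, above their mates (450 to 577 and 342 to 624). M1 markers summed to 2162 CPM in that WT M2 library, against 342 and 754 in its mates. KO M0 AP-3-84 replicate 2 had a macrophage marker sum of 18132 CPM (mates 29347 and 39158). These 3 libraries stood apart from their groups. So did KO M1 AP-3-84 replicate 1, with 3653 CPM of neutrophil markers (mates 780 and 727) and 12523 of macrophage markers (mates 21121 and 19445). Without it, 12 members were called for KO minus WT with the compound in M1, as with it, and 0 for the compound in KO M1. In the marrow libraries, B and T cell markers summed to at most 22.7 and 7.08 CPM, and Cd3e had 0 counts in every group. In these bulk samples, fewer cells of a type and less RNA per cell cannot be told apart.

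The p53 half-site is a stretch of 10 bases, and a site is a pair of them. RefSeq promoters (GRCm38.p6, 250 bases before to 50 after the start) were found for 26 members. A pair could have at most 2 mismatches in all to the p53 half-site consensus and a spacer of at most 13 bases. The fixed C and G of the consensus had to match in each half-site. Such a pair lay in a promoter of 6 of the 26 (23.1%), against 1272 of 27025 genes (4.71%). The half-site is its own reverse complement, so both strands were read at once. The 3 promoters shown here belong to genes that were lower in p53 KO cells, and they come from both the arrest and the death branch. Each is given 5′ to 3′ on the gene's strand from position -250 to -31 relative to the start. Only the pair with the fewest mismatches is in capitals, and other stretches that match stay in lower case. In Cdkn1a, for example, the 10 bases directly after the marked pair are a half-site with 1 mismatch.
Cdkn1a, chr17:29090729-29090948, plus strand, 0 mismatches and a spacer of 12: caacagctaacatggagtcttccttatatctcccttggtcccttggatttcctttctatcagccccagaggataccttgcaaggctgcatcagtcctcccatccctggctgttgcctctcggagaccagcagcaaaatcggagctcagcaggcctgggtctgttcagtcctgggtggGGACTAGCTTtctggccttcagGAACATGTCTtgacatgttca
Ccng1, chr11:40755317-40755536, minus strand, 1 mismatch and a spacer of 0: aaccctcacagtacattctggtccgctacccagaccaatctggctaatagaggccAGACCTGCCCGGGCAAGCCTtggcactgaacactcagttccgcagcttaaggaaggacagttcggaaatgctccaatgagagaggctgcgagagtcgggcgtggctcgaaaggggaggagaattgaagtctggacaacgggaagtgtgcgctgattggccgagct
Bax, chr7:45466929-45467148, minus strand, 2 mismatches and a spacer of 1: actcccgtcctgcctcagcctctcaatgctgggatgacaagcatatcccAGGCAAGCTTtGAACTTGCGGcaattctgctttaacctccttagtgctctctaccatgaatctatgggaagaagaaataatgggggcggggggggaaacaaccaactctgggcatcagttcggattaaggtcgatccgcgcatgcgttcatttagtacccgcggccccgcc
The pairs of the other 3 genes are shown without the bases around them.
Gtse1, chr15:85859945-85859964, 1 mismatch: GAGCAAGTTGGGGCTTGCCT
Ckap2, chr8:22186003-22186022, 2 mismatches: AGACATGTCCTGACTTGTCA
Sesn1, chr10:41887253-41887275, 2 mismatches and a spacer of 3: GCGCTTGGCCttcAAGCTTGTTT
A match describes these letters only and no binding was measured, and a window without a match (Mdm2, Phlda3 and Psrc1 among others) says nothing of sites elsewhere in the gene.

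Trp53 itself, on chromosome 11 from 69580359 to 69591873 (GRCm38), was read in every KO library. Its level ran from 4.79 to 13.2 CPM over the 18 WT marrow libraries (median 7.37) and from 2.70 to 9.11 over the 18 KO libraries (median 4.63), so the genotypes overlapped. Among M0 vehicle libraries the WT values were 13.2, 10.8 and 9.20 CPM and the KO values 3.14, 3.39 and 6.49, a log2 difference of -1.34 (SE 0.40, adjusted p = 0.0102), which was lost without KO replicate 1 (adjusted p = 0.0536). Vehicle groups did not differ in M1 (-0.22, 95% interval from -1.02 to 0.58) or in M2 (-0.63, from -1.47 to 0.21) beyond their spread. Since 3′ tags outside a deleted part would still be read, this row is no check of the knockout.

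With vehicle alone, 16 of the 32 tested members were lower and 1 higher in KO than WT in M0, 8 were lower and 2 higher in M1, and 11 were lower and 0 higher in M2. Among all 11779 genes tested, 33.2% were called in M0, 11.6% in M1 and 3.56% in M2. Genes called lower made up 16.8%, 5.71% and 2.34%. The median log2 difference over the tested members was -1.07 in M0, -0.51 in M1 and -0.67 in M2, against 0.03, 0.00 and 0.01 over all genes. After 4 h with the compound, 13, 11 and 16 members were lower and 0, 1 and 0 higher, where 11.8%, 11.8% and 11.5% of all genes were called and 4.79%, 6.78% and 5.47% were called lower. The M1 vehicle count of 10 was 6 without KO replicate 3 (Cdkn1a, Ccng1, Plk2, Pmaip1, Phlda3, Zmat3), and its split was 4 higher and 7 lower under scaling by total counts. The M2 vehicle count rests partly on 1 fitting choice and on single libraries: it was 4 when only these 2 groups were fitted, 7 without KO replicate 2, and 8 without WT M2 vehicle replicate 1, KO M2 vehicle replicate 3 and KO M0 AP-3-84 replicate 2. Without those 3 libraries, 12 members were called with the compound in M0.

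**Figure D1:**
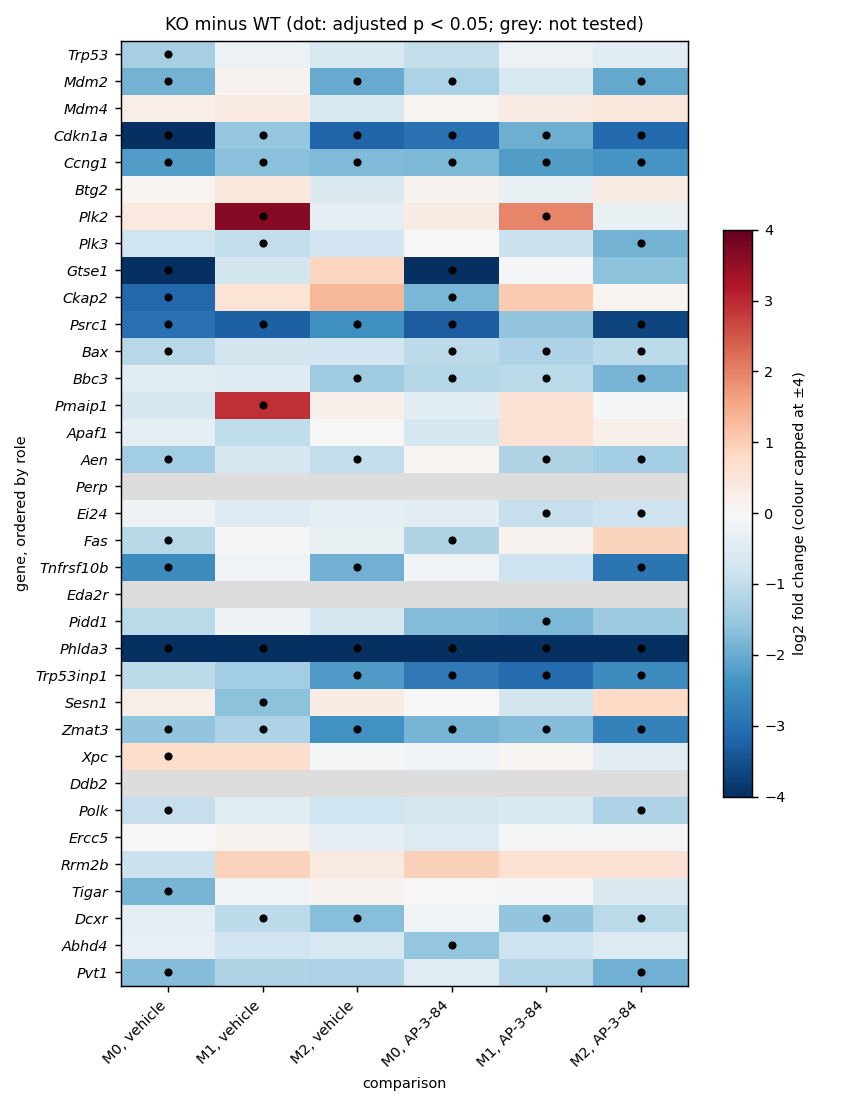
Log2 fold change KO minus WT for each member (rows, ordered by role) in M0, M1 and M2 with vehicle or AP-3-84 (columns); a dot marks an adjusted p below 0.05 and grey a gene not tested. Rows of Cdkn1a, Ccng1, Phlda3 and Zmat3 are blue with a dot in all 6 columns.

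Cdkn1a, Ccng1, Phlda3 and Zmat3 were lower in KO in all 6 genotype comparisons, and the 2 genotypes did not overlap in any of them. Of all genes tested, 0.102% were lower in all 6. Cdkn1a, the p21 inhibitor of cyclin-dependent kinases, had 1114, 865 and 803 CPM in WT M0 vehicle and 34.1, 36.6 and 45.7 in KO. In M1 it had 687, 609 and 719 CPM in WT and 252, 196 and 247 in KO, and in M2 1115, 777 and 803 against 55.5, 93.3 and 142. All KO libraries lay below all WT libraries of their state, and the gap was widest in M0. The log2 differences were -4.58 (SE 0.32, adjusted p = 1.12e-10) in M0, -1.54 (SE 0.28, adjusted p = 0.000655) in M1 and -3.21 (SE 0.30, adjusted p = 5.66e-08) in M2.

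Ccng1 encodes cyclin G1, a partner of the phosphatase that acts on Mdm2. It had 176, 114 and 120 CPM in WT M0 vehicle and 25.2, 33.9 and 29.2 in KO, and its KO level was nearly flat over polarization (33.0 to 36.2 CPM in M1, 36.3 to 37.9 in M2). Its WT level was 109 to 113 in M1 and 94.0 to 167 in M2. The log2 differences were -2.22 (SE 0.23) in M0, -1.67 (SE 0.23) in M1 and -1.75 (SE 0.23) in M2, with adjusted p from 1.27e-07 to 2.16e-05.

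Phlda3, a pleckstrin-homology protein that competes with Akt for membrane lipids, had counts at or near 0 in KO libraries. WT vehicle libraries held 24.7, 17.2 and 15.3 CPM in M0, 9.24, 9.80 and 11.8 in M1, and 36.2, 22.9 and 18.4 in M2. KO vehicle libraries held 1.31, 0.92 and 0.81 CPM in M0, 0 in each of 3 in M1, and 0, 0 and 0.25 in M2. The M0 log2 difference was -4.18 (SE 0.49, adjusted p = 3.23e-07). In M1 the KO libraries had 0 counts against 115 in WT, at least 41.7-fold lower at a floor of 3 counts over the group. Eda2r, a receptor of the tumour necrosis factor family, was too low to test and followed the same side: 0 counts in the 3 vehicle KO groups against 11, 6 and 13 in WT M0, M1 and M2. Over the summed counts that is at least 3.14-fold, 2.17-fold and 5.27-fold lower. By library the WT counts were 6, 4 and 1 in M0, 0, 4 and 2 in M1, and 1, 12 and 0 in M2. The M2 sum thus rests on 1 library, and in M1 and M2 a WT library had 0 like the KO libraries.

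Zmat3, an RNA-binding zinc finger protein, had 47.3, 37.5 and 39.4 CPM in WT M0 vehicle against 15.2, 10.2 and 15.96 in KO. In M1 the levels were 22.1, 22.5 and 26.7 against 11.5, 10.1 and 8.93, and in M2 45.9, 42.8 and 56.7 against 9.82, 9.46 and 7.69. The log2 differences were -1.58 (SE 0.26), -1.22 (SE 0.27) and -2.43 (SE 0.27). These 4 genes kept their call in each of the 6 comparisons under every alternative tried.

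**Figure D2:**
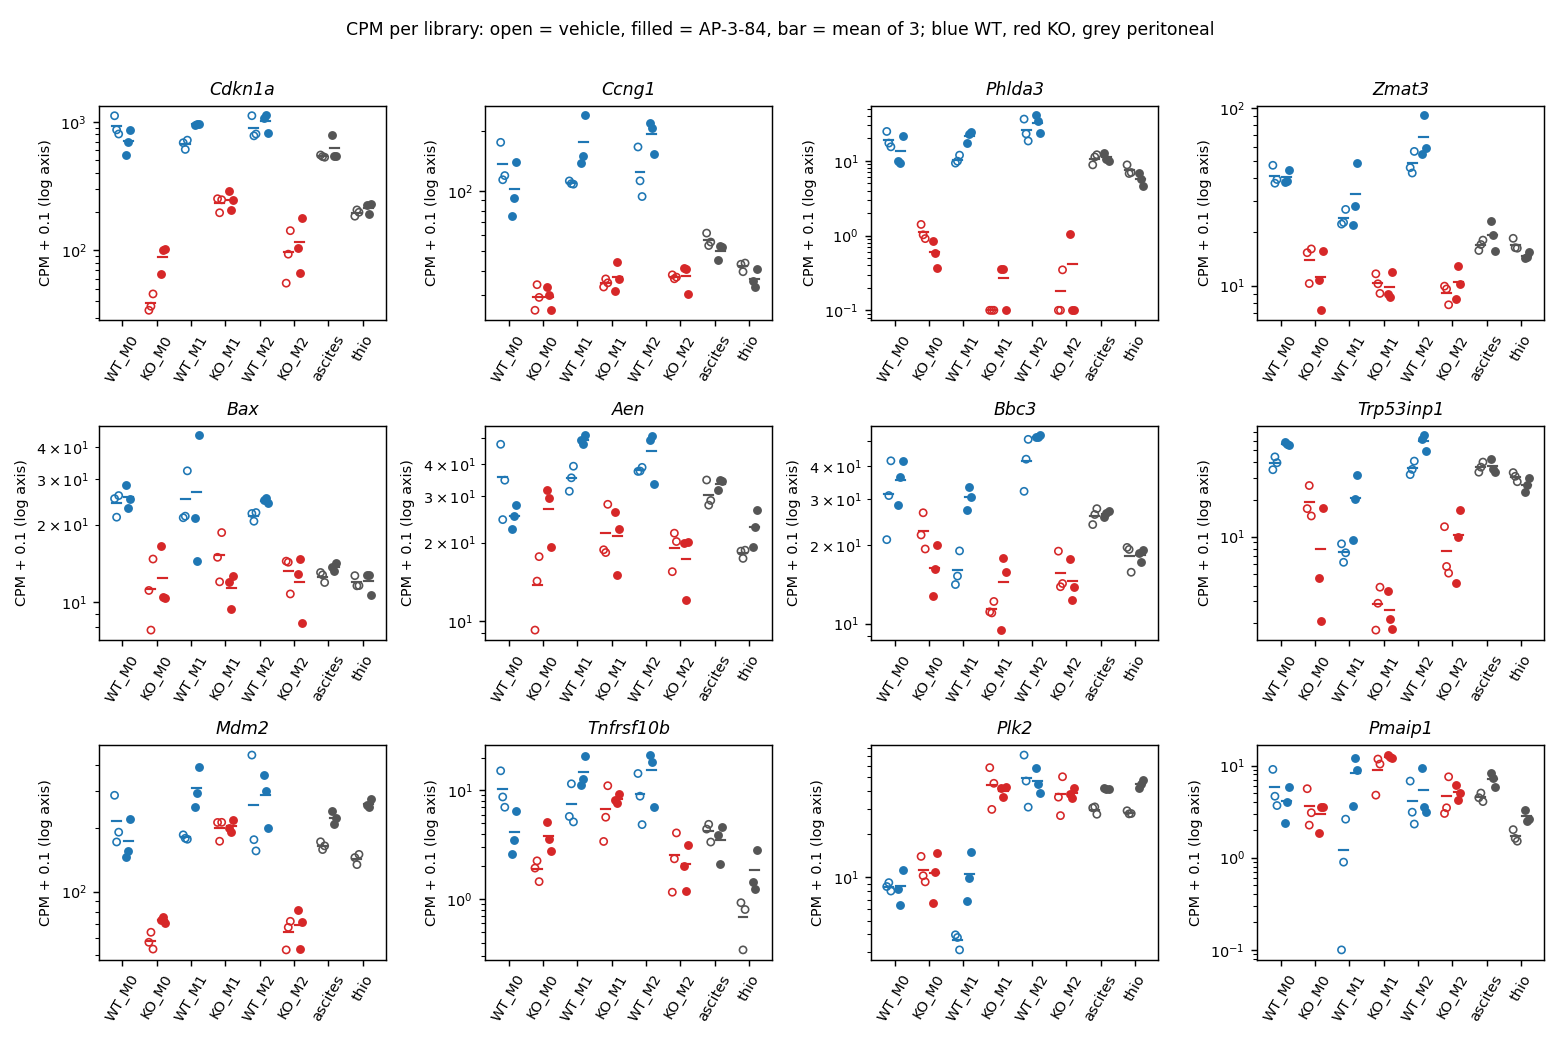
CPM (log axis, 0.1 added) of 12 members in each of the 48 libraries, by population (x axis); points are libraries, open for vehicle and filled for AP-3-84, bars are means of 3, and WT is blue, KO red and peritoneal grey. Cdkn1a in KO cells lies between 34.1 and 292 CPM, below every WT marrow library (555 or more). The 12 peritoneal libraries, scaled apart from the marrow libraries, lie between 184 and 789 CPM and overlap the KO range.

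The inhibitors of p53 differed from each other. Mdm2, on chromosome 10, had 286, 172 and 191 CPM in WT M0 vehicle and 57.4, 64.0 and 53.3 in KO. In M2 it had 444, 176 and 156 against 52.8, 67.6 and 72.2. In M1, WT libraries held 186, 179 and 177 CPM and KO libraries 213, 173 and 213, so that the vehicle groups of the genotypes overlapped in M1 only. The log2 differences were -1.89 (SE 0.28, adjusted p = 1.08e-05) in M0 and -2.01 (SE 0.28, adjusted p = 7.00e-05) in M2, against 0.14 (SE 0.27, adjusted p = 0.779, 95% interval from -0.40 to 0.69) in M1. The M2 call was lost when only those groups were fitted (adjusted p = 0.193). Under the compound Mdm2 was lower in KO in M0 (-1.25, SE 0.28) and M2 (-2.05, SE 0.28), calls that held under every alternative. Mdm4, which binds p53 without degrading it, was called in none of the 6 comparisons, and its marrow libraries spanned 11.2 to 28.8 CPM. Its interval for KO minus WT in M0 ran from -0.26 to 0.79.

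Among other arrest genes, Plk2 and Plk3, kinases of the polo family, went opposite ways. Plk2 had 3.87, 3.71 and 3.02 CPM in WT M1 vehicle and 58.0, 29.6 and 45.1 in KO M1, a log2 difference of 3.64 (SE 0.35, adjusted p = 3.52e-08). In M0 it had 8.52, 9.08 and 7.92 in WT and 13.9, 10.2 and 9.20 in KO, and in M2 71.0, 46.7 and 30.7 against 36.1, 26.8 and 50.1, and neither difference was called. Plk3 was lower in KO in M1 (log2 difference -0.9997, SE 0.32, adjusted p = 0.0364) from 24.7, 22.3 and 17.1 CPM to 10.7, 12.2 and 9.15. That call was lost without any 1 of 4 libraries (KO replicates 1 and 3, WT replicates 1 and 2). Under AP-3-84 in M2, Plk3 had 43.2, 39.9 and 39.7 CPM in WT and 6.05, 12.8 and 14.0 in KO (-1.89, SE 0.32, adjusted p = 0.000133). Btg2, an antiproliferative cofactor of mRNA deadenylation, was called in none of the 6, at 4.28 to 35.1 CPM over the marrow libraries.

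Gtse1, Ckap2 and Psrc1 encode microtubule-associated proteins made mainly in dividing cells. Gtse1 had 33.2, 37.8 and 18.4 CPM in WT M0 vehicle and 2.88, 1.23 and 0.27 in KO (log2 difference -4.30, SE 0.83, adjusted p = 0.000278). Ckap2 had 16.8, 25.3 and 16.9 against 1.31, 1.54 and 3.79 (-3.13, SE 0.49, adjusted p = 1.46e-05). In M2 vehicle neither was called. Gtse1 had 2.92, 13.7 and 18.6 CPM in KO and 6.96, 9.35 and 3.17 in WT, which overlap, and Ckap2 had 5.84, 9.46 and 11.9 in KO and 2.78, 5.13 and 2.85 in WT. Under the compound in M0, Gtse1 (-4.04, SE 0.88) and Ckap2 (-1.82, SE 0.47) were lower in KO, the latter lost without KO replicate 1 or WT replicate 3. A list of 20 cell cycle markers was also lower in KO M0 vehicle. Its summed level was 2336 to 2466 CPM in WT M0 vehicle and 336 to 423 in KO M0 vehicle, with 20 of 20 lower, but 1014 to 1462 in WT M2 and 1269 to 2842 in KO M2, with 2 of 20 higher. After the compound in KO M0 the list summed to 649, 1798 and 720 CPM, with 16 of 20 higher than with vehicle. Gtse1 had 0.25, 1.73 and 1.06 CPM in those libraries, and neither Gtse1 nor Ckap2 was called for that change. The part of this list in the values of Gtse1 and Ckap2 was not tested. Psrc1 was lower in KO in all 3 states with vehicle. It had 7.40, 4.06 and 9.20 CPM in WT M0 against 1.05, 1.54 and 0 in KO M0. In M1 it had 2.09, 3.18 and 2.77 against 0.55, 0.25 and 0, and in M2 9.18, 8.44 and 14.9 against 1.59, 2.25 and 1.98. Its log2 differences were -2.98 (SE 0.68), -3.26 (SE 0.89) and -2.45 (SE 0.59). Under the compound, Psrc1 was lower in M0 (-3.33, SE 0.77) and M2 (-3.69, SE 0.67). The M1 vehicle call was lost without KO replicate 3 (adjusted p = 0.079) and the M2 vehicle call without any 1 of KO replicates 2 and 3 and WT replicate 3.

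**Figure D3:**
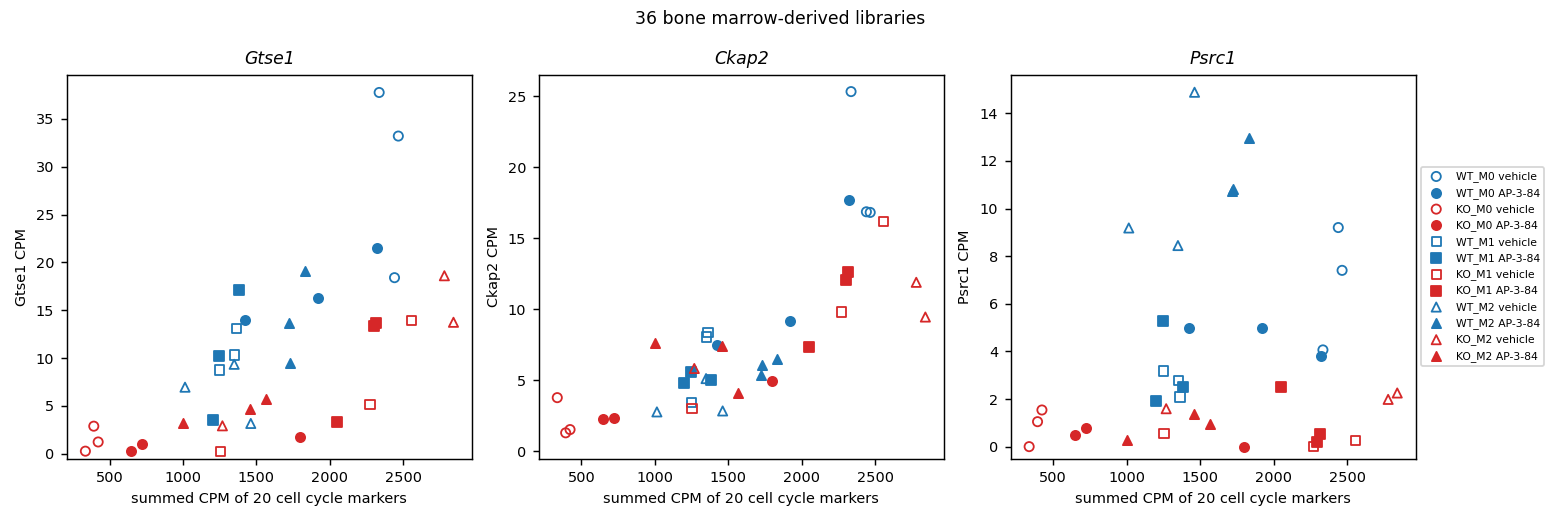
Summed CPM of 20 cell cycle markers in each marrow library (x axis) against the CPM of Gtse1, Ckap2 and Psrc1 (y axes); open symbols are vehicle, filled are AP-3-84, and circles, squares and triangles are M0, M1 and M2. KO M0 vehicle libraries have the lowest marker sums (336 to 423 CPM) and Gtse1 levels of at most 2.88 CPM.

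Of the mitochondrial death genes, Bax, the pore-forming executioner, had 25.1, 21.3 and 25.8 CPM in WT M0 vehicle and 11.0, 7.70 and 14.6 in KO (log2 difference -1.11, SE 0.29, adjusted p = 0.00427). Its genotypes did not overlap in any of the 6 comparisons, and 4 were called. The calls under the compound were lost without 1 library: KO replicate 2 or WT replicate 1 in M0, WT replicate 3 in M1, and KO replicate 3 or WT replicate 2 in M2. Bax overlaps another gene of the table on the same strand, so its reads may be shared. The same limit holds for Fas, Sesn1, Rrm2b and Pvt1. Mdm4, Plk3, Apaf1, Ei24, Ddb2, Polk and Tigar overlap a gene on the opposite strand. Strand use in counting was not given, so their reads may be shared too. Bbc3, which encodes the BH3-only protein PUMA, was lower in KO M2 vehicle (32.0, 42.5 and 50.7 CPM against 18.8, 13.7 and 14.1, a log2 difference of -1.42, SE 0.24, adjusted p = 0.000534). It was also lower in all 3 states under the compound (-1.13 in M0, -1.08 in M1, -1.84 in M2). The M2 vehicle call was lost when only those groups were fitted (adjusted p = 0.0985).

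Pmaip1, which encodes the BH3-only protein NOXA, went the other way in M1. WT M1 vehicle libraries held 0, 0.79 and 2.52 CPM and KO libraries 4.67, 11.6 and 10.3 (log2 difference 2.92, SE 0.65, adjusted p = 0.0035). In M0 and M2 the genotypes overlapped. Aen, a nuclease of apoptotic DNA breakdown, was lower in KO in M0 (47.3, 24.4 and 34.5 CPM against 9.17, 14.2 and 17.6, a log2 difference of -1.38, SE 0.26) and in 3 other comparisons. Its M2 vehicle call (-0.98, SE 0.25, adjusted p = 0.0229) was lost without any 1 library other than WT replicate 2. Ei24, an endoplasmic reticulum protein, was lower in KO under the compound in M1 (-0.92, SE 0.20) and M2 (-0.84, SE 0.20). Apaf1, the scaffold that activates caspase-9, was called in none of the 6, at 4.04 to 22.1 CPM in marrow libraries. Its M1 vehicle difference was -1.01 with an adjusted p of 0.0736. Perp, a desmosomal membrane protein, had 7, 3 and 2 counts in WT M2 cells with the compound and 0 in WT M2 vehicle (at least 3.81-fold higher). KO M2 cells with the compound also had 0, at least 3.96-fold lower than WT.

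The death receptors were less uniform. Tnfrsf10b, the mouse TRAIL receptor, had 15.0, 8.60 and 6.90 CPM in WT M0 vehicle and 1.83, 2.15 and 1.35 in KO (log2 difference -2.51, SE 0.55, adjusted p = 0.000724). It was lower in M2 too (-1.91, SE 0.52, adjusted p = 0.0319), a call lost without any 1 of KO replicates 1 and 2 and WT replicate 1. In M1 vehicle it had 5.66, 11.4 and 5.04 against 3.30, 5.57 and 10.9, which overlap. Fas, the receptor of Fas ligand, was lower in KO M0 (-1.11, SE 0.38, adjusted p = 0.0236), although 1 WT library (8.52 CPM) lay within the KO range (2.98 to 8.93). That call was lost without any 1 of KO replicate 3 and WT replicates 2 and 3. Under the compound in M0, Fas had 26, 21.8 and 24.0 CPM in WT and 12.6, 8.14 and 10.1 in KO, with no overlap (-1.22, SE 0.36, adjusted p = 0.0209), lost without KO replicate 2 or WT replicate 1 or 3. Tnfrsf10b under the compound in M2 had 21, 18.2 and 6.95 against 1.91, 1.09 and 3.02 (-2.92, SE 0.54, adjusted p = 0.000339). Pidd1, an adaptor of the caspase-2 complex, was called once (under the compound in M1, adjusted p = 0.0484), and that call was lost without any 1 of the 6 libraries.

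Among the stress adaptors, Trp53inp1, a nuclear and autophagy protein, had 34.8, 44.2 and 39.6 CPM in WT M0 vehicle against 16.8, 25.9 and 14.6 in KO, which was not called. In M2 it had 31.7, 35.0 and 40.8 against 11.9, 5.63 and 4.96 (log2 difference -2.26, SE 0.47, adjusted p = 0.00687), a call lost without KO replicate 2 or 3. Under the compound the levels were 58.3, 56.4 and 55.1 in WT against 4.55, 1.97 and 16.9 in KO in M0, 9.29, 20.2 and 31.7 against 3.53, 2.06 and 1.70 in M1, and 61.4, 66.2 and 49.2 against 4.14, 9.78 and 16.5 in M2. Trp53inp1 was lower in KO in all 3 (-2.86, SE 0.47, -3.07, SE 0.56, and -2.52, SE 0.46), and these calls held under every alternative. Its genotypes did not overlap in any of the 6 comparisons. Sesn1, a sestrin that restrains mTORC1, was called in 1 of the 6 comparisons, lower in KO M1 vehicle (15.8, 16.2 and 11.8 CPM against 2.75, 7.34 and 3.79, -1.65, SE 0.44, adjusted p = 0.0144). The M1 call of Sesn1 was lost without any 1 of KO replicates 1 and 3 and WT replicate 2. It overlaps another gene on the same strand.

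Repair genes were called in few comparisons. Ercc5 and Rrm2b, a repair nuclease and a ribonucleotide reductase subunit, were called in none of the 6 comparisons. Xpc, the damage sensor of global genome repair, was higher in KO M0 vehicle (27.0, 24.6 and 35.97 CPM against 19.7, 17.7 and 16.9, log2 difference 0.69, SE 0.25, adjusted p = 0.033), a call lost without KO replicate 3 or any 1 of the 3 WT libraries. Polk, a translesion polymerase, was lower in KO M0 vehicle (-0.91, SE 0.29, adjusted p = 0.0145), lost without KO replicate 3 or WT replicate 1. It was lower too under the compound in M2 (-1.24, SE 0.30), lost without WT replicate 2. Ddb2 had at most 1.98 CPM in marrow libraries. Tigar, a phosphatase that lowers glycolytic flux, had 27.6, 14.3 and 16.4 CPM in WT M0 vehicle and 7.08, 3.69 and 5.14 in KO (-1.86, SE 0.32, adjusted p = 4.52e-05), and no call in M1 or M2. Dcxr, a reductase of dicarbonyls and xylulose, had 59.7, 76.2 and 81.3 against 46.6, 56.0 and 68.2 in M0, with no call. It was lower in KO M1 (34.3, 38.7 and 41.0 against 22.5, 19.5 and 13.6, -1.04, SE 0.25, adjusted p = 0.00598, lost without KO replicate 3) and KO M2 (97.1, 76.3 and 97.8 against 35.3, 19.1 and 28.8, -1.71, SE 0.24, adjusted p = 4.14e-05, lost when only those groups were fitted). Under the compound Dcxr was lower in M1 (-1.59, SE 0.25) and M2 (-1.07, SE 0.23). Abhd4, a lipid hydrolase, was called once (M0 under the compound, -1.54, SE 0.36, adjusted p = 0.00559, lost without KO replicate 1). Pvt1, a long non-coding RNA beside Myc, was lower in KO in M0 vehicle (4.71, 3.58 and 5.88 CPM against 0.79, 2.15 and 1.35, -1.72, SE 0.58, adjusted p = 0.0195), lost without WT replicate 3 or KO replicate 1 or 3. Its call under the compound in M2 (-1.91, SE 0.59) was lost without KO replicate 2 or 3 or WT replicate 1 or 2. In all, 24 of the 32 tested members were lower in at least 1 of the 6 comparisons, against 29.1% of all genes, and 8 in none.

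The genotype difference itself changed with polarization. In vehicle libraries, the KO minus WT difference in M1 was more positive than in M0 for 9 members and more negative for 2, where 20.7% of all genes were called. Between M2 and M0 it was more positive for 4 and more negative for 3, where 27.1% were called. Both comparisons share the M0 groups. Against that background the count of 11 of 32 in M1 is a share of members above that of all genes, and the count of 7 of 32 in M2 is not. With 1 library left out, the counts were 8 to 11 in M1 and 5 to 8 in M2. The 8 in M1 was without KO M1 replicate 3. The members were chosen with earlier results of these data known, which limits what the share in M1 can mean.

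Cdkn1a, Mdm2 and Tigar had higher levels in KO M1 than KO M0 while the WT groups of the same genes were not called. Cdkn1a rose in KO cells from 34.1, 36.6 and 45.7 CPM in M0 to 252, 196 and 247 in M1 (log2 change 2.58, SE 0.30, adjusted p = 1.21e-07), and its WT change was -0.47 (SE 0.27, adjusted p = 0.269). The difference between the changes was 3.04 (SE 0.40, adjusted p = 4.72e-06). Mdm2 rose by 1.78 (SE 0.28, adjusted p = 9.43e-06) in KO and had a change of -0.26 (SE 0.27, adjusted p = 0.572) in WT, a difference of 2.04 (SE 0.39, adjusted p = 0.000351). Tigar rose by 2.05 (SE 0.32, adjusted p = 4.48e-06) in KO, from 3.69 to 7.08 CPM in M0 to 16.5 to 26.8 in M1, and the difference between genotypes was 1.71 (SE 0.42, adjusted p = 0.00364). In M1, then, KO cells without p53 held Mdm2 and Tigar at levels that overlapped WT, and Cdkn1a below WT.

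Plk2 moved in opposite directions in the 2 genotypes. It rose in KO (1.99, SE 0.30, adjusted p = 4.10e-06) and fell in WT (-1.27, SE 0.38, adjusted p = 0.0192) between M0 and M1, a difference of 3.25 (SE 0.48, adjusted p = 1.32e-05). The fall in WT was lost without any 1 of M0 replicate 2 and M1 replicates 2 and 3. Pmaip1 fell in WT (-2.28, SE 0.67, adjusted p = 0.0157, lost without M0 replicate 1 or M1 replicate 1 or 2), and its KO change was 1.31 (SE 0.56, adjusted p = 0.0561). The difference was 3.59 (SE 0.87, adjusted p = 0.00317). Ckap2 (3.68, SE 0.66) and Gtse1 (3.58, SE 1.10) also differed, the latter lost without KO M0 replicate 3 or KO M1 replicate 2, and all 20 cell cycle markers rose in KO between M0 and M1 and between M0 and M2. Neutrophil markers summed to 985 to 2502 CPM in KO M1 vehicle and 440 to 566 in WT M1 vehicle, and macrophage markers to 16316 to 25726 against 44015 to 46963. The part of either in these values was not tested.

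**Figure D4:**
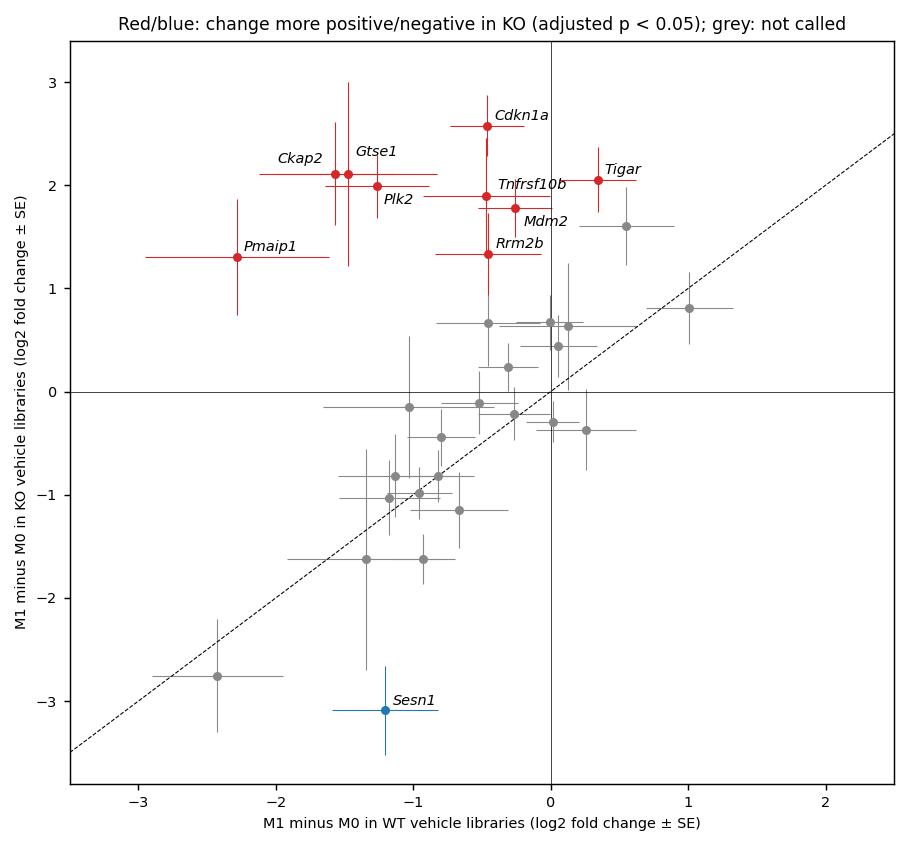
Log2 change M1 minus M0 with its SE in WT (x axis) and KO (y axis) vehicle libraries for tested members other than Phlda3, which had 0 counts in KO M1; the dashed line marks equal change. Cdkn1a, Mdm2, Tigar, Plk2, Pmaip1, Ckap2, Gtse1, Rrm2b and Tnfrsf10b lie above the line and are called, and Sesn1 below it.

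Genes that fell in M1 in both genotypes were Bbc3, Trp53inp1, Sesn1, Xpc, Ercc5 and Dcxr. Trp53inp1 went from 34.8, 44.2 and 39.6 CPM to 8.64, 6.09 and 7.30 in WT (-2.43, SE 0.48) and from 16.8, 25.9 and 14.6 to 1.65, 2.78 and 3.79 in KO (-2.75, SE 0.55). Sesn1 fell by 1.204 in WT (SE 0.38, lost without M0 replicate 2 or any M1 library) and by 3.09 in KO (SE 0.43) on the log2 scale. Xpc and Ercc5 lost their WT call without several single libraries, M0 replicates 2 and 3 and M1 replicate 3 among them. In WT, 10 members fell and 1 (Plk3) rose, where 15.5% of genes were called. In KO, 8 fell and 9 rose, where 44.5% were called. The WT count of 11 was 4 to 9 when 1 library was left out, with 4, 6 and 7 without M1 replicates 2, 1 and 3, and 5 and 7 without M0 replicates 2 and 3. In M2 the counts against M0 were 2 higher and 4 lower in WT, where 23.4% of genes were called, and 7 higher and 6 lower in KO, where 38% were called. Without M2 replicate 1 the WT count of 6 was 4, under scaling by total counts its split was 1 higher and 5 lower, and without M2 replicate 3 the KO count of 13 was 11. Plk2 rose in M2 in both genotypes, by 2.54 (SE 0.31) in WT and 1.76 (SE 0.30) in KO, and Sesn1 fell in both, by 1.80 (SE 0.40) and 1.75 (SE 0.39).

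AP-3-84 called no member in WT marrow cells in edgeR's test, in any of the 3 states. In WT M0, 2 of 32 members passed an unadjusted p of 0.05, both lower (Tnfrsf10b, Sesn1), against 9.40% of all genes, and 0.144% of genes were called. In WT M2, 5 passed it, 3 higher and 2 lower, against 11.8% of all genes, and 1.21% were called. DESeq2 also called 0 members in both. In WT M1, 10 of 32 members passed an unadjusted p of 0.05, 9 higher and 1 lower, against 7.28% of all genes, and 0.017% were called. The 9 were Mdm2, Ccng1, Plk2, Bbc3, Pmaip1, Tnfrsf10b, Pidd1, Phlda3 and Trp53inp1, and the 1 was Apaf1.

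In WT M1, Plk2 had 3.87, 3.71 and 3.02 CPM with vehicle and 6.73, 9.83 and 14.9 with the compound (log2 change 1.56, SE 0.38, adjusted p = 0.147). Pmaip1 had 0, 0.79 and 2.52 against 3.52, 12.1 and 8.93 (2.81, SE 0.66, adjusted p = 0.12), and it was called without vehicle replicate 3. Mdm2 had 186, 179 and 177 against 252, 293 and 389 (0.79, SE 0.27, adjusted p = 0.46), and Bbc3 14.0, 15.1 and 18.9 against 27.2, 33.3 and 30.4 (0.92, SE 0.24, adjusted p = 0.243). In each of these 4 genes the 3 treated libraries lay above the 3 vehicle libraries, and none passed the test over all genes. Of the 35 members, 11 lay apart in this way and 1 in the other direction. The share of all genes that lay apart was not counted, so these counts cannot be read as a result about the members. The count of called members in WT M1 depended on the fit: 2 with DESeq2 (Plk2, Pmaip1), 4 when only the 2 groups were fitted (Mdm2, Cdkn1a, Bbc3, Phlda3) and 6 with no filter on low counts (Mdm2, Ccng1, Plk2, Bbc3, Pmaip1, Trp53inp1). The shares of all genes called under these fits are not given here, so the counts show dependence on the fit and nothing particular to the members. The treated libraries of WT M1 had neutrophil marker sums of 668 to 1324 CPM against 440 to 566 with vehicle. The part of these in the values was not tested.

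In KO M1, 0 members and 0% of genes were called, and 1 member passed an unadjusted p of 0.05 against 1.75% of genes. In KO M2, 0 members and 0.0509% of genes were called, and 0 members passed it against 12.3% of genes. DESeq2 called 0 members in both. Plk2 in KO M1 had 58.0, 29.6 and 45.1 CPM with vehicle and 41.7, 36.4 and 42.4 with the compound, and the interval of its change ran from -0.70 to 0.42. The interval of Mdm2 in KO M1 ran from -0.52 to 0.58. The response of KO minus that of WT was called for 0 members in M1, where 0.00849% of all genes were called, and for 0 in M2, where 1.77% were called. DESeq2 called 0 in both. An unadjusted p of 0.05 was passed by 3 of 32 members in M1, against 7.05% of all genes, and by 4 in M2, against 15.4%. For Mdm2 in M1 that difference was -0.76 with an upper bound of 0.02, so a difference between genotypes was not shown.

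**Figure D5:**
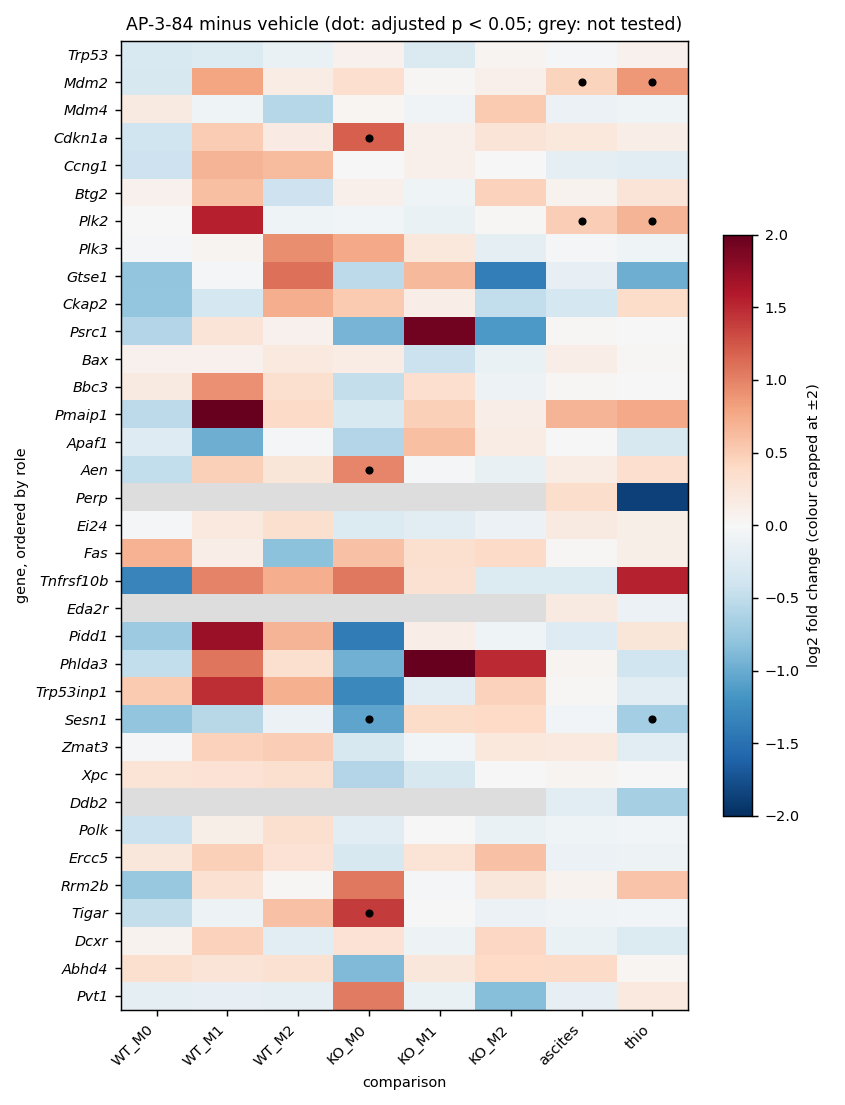
Log2 fold change AP-3-84 minus vehicle for each member (rows, by role) in 8 populations (columns); a dot marks an adjusted p below 0.05 and grey a gene not tested. Mdm2 and Plk2 have dots in the ascites and thio columns, and the only marrow column with dots is KO_M0.

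KO M0 was the exception among marrow cells: 3 members rose (Cdkn1a, Aen, Tigar) and 1 fell (Sesn1), but 20.7% of all genes were called there, so 4 of 32 is below the background. Cdkn1a had 34.1, 36.6 and 45.7 CPM with vehicle and 65.9, 100.4 and 102 with AP-3-84 (log2 change 1.202, SE 0.29, adjusted p = 0.00367). Tigar had 7.08, 3.69 and 5.14 against 15.2, 17.0 and 10.3 (1.40, SE 0.32, adjusted p = 0.00215), and Aen 9.17, 14.2 and 17.6 against 31.6, 29.6 and 19.1 (0.97, SE 0.26, adjusted p = 0.0082). Treated Cdkn1a remained below every WT M0 library (555 CPM or more), and treated Tigar and Aen overlapped WT M0. The Aen call was lost without treated replicate 1 or vehicle replicate 1, and Sesn1 (44.5, 46.5 and 28.1 against 20.2, 17.8 and 19.6, adjusted p = 0.0453) was lost without any 1 library other than vehicle replicate 3. Without treated replicate 1 the count was 2 (Cdkn1a, Tigar). Without treated replicate 2, which stood apart, it was 4, with Rrm2b called and Sesn1 not.

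The compound's change differed between KO and WT in M0 for 6 members, 5 more positive and 1 more negative in KO, where 17% of all genes were called. Cdkn1a differed by 1.60 (SE 0.40, adjusted p = 0.0065), Aen by 1.47 (SE 0.36, adjusted p = 0.00557) and Tigar by 1.88 (SE 0.43, adjusted p = 0.0032), and these 3 kept their call under every alternative. Tnfrsf10b, Rrm2b and Trp53inp1 lost theirs without single libraries, and without WT treated replicate 2 only the first 3 were left. Without KO treated replicate 2 the count was 4, and under scaling by total counts it was 5, all more positive. Cell cycle markers moved with these values: they summed to 336 to 423 CPM in KO M0 vehicle and 649, 1798 and 720 after the compound, with 16 of 20 higher. M1 markers summed to 59.0 to 79.7 and then 184 to 678. Their part in the result was not tested. These comparisons share the KO M0 vehicle libraries with the genotype comparison in M0.

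In the peritoneal macrophages, which have p53, Mdm2 and Plk2 rose in both populations, where 1.79% of genes were called in ascites and 4.32% in thio. Mdm2 had 172, 158 and 165 CPM in ascites vehicle libraries and 240, 210 and 223 in treated ones (log2 change 0.44, SE 0.07, adjusted p = 0.00081). In thio cells it had 145, 134 and 150 against 258, 251 and 274 (0.87, SE 0.07, adjusted p = 6.81e-07). Treated and vehicle libraries did not overlap in either.

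Plk2 had 30.4, 30.8 and 27.4 CPM against 41.7, 41.0 and 41.4 in ascites (0.49, SE 0.09, adjusted p = 0.00305) and 29.0, 27.6 and 27.7 against 41.8, 44.8 and 47.7 in thio (0.67, SE 0.09, adjusted p = 0.000134). Both genes kept their calls under every alternative. Cdkn1a was called in neither, at 551, 536 and 530 against 789, 537 and 539 in ascites and 184, 206 and 198 against 225, 191 and 228 in thio. Pmaip1 lay higher in all treated libraries of both (4.37, 4.93 and 3.96 against 8.18, 7.31 and 5.74 in ascites), with an adjusted p of 0.217 and 0.13. Sesn1 fell in thio (16.8, 13.1 and 15.7 against 11.0, 10.1 and 7.43, -0.67, SE 0.18, adjusted p = 0.048), a call lost without any 1 library other than treated replicate 1 and with the replicate number as a block. DESeq2 and the fit with no filter added Tnfrsf10b and Rrm2b in thio. Epithelial or ID8 markers summed to 185 to 235 CPM in the ascites libraries and to at most 4.66 in thio. Ckap2 spanned 18.3 to 53.4 CPM in ascites with no call.

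The other genes of the pathway were taken from a list of 25 other p53 targets, of which 17 were tested in marrow cells, and a list of 19 regulators, of which 18 were tested. Of the 17 other targets tested, 6 were lower and 2 higher in KO in M0 vehicle, 0 and 3 in M1, and 4 and 0 in M2. Among all genes, 16.8%, 5.71% and 2.34% were called lower and 16.4%, 5.93% and 1.21% higher. The medians of the list were -0.47, 0.18 and -0.79 against the values over all genes given above. Gdf15, a stress cytokine, had 51.9 ± 19 CPM (SD, n = 3) in WT M0 and 8.88 ± 2.7 in KO M0 (log2 difference -2.56, SE 0.33, adjusted p = 1.50e-06). In M1 it was higher in KO (13 ± 1.8 in WT, 103 ± 23 in KO, 2.99, SE 0.32, adjusted p = 5.03e-07). Sesn2 was lower in KO in M0 (-1.47, SE 0.28, adjusted p = 0.000153) and M2 (-0.97, SE 0.28, adjusted p = 0.0443). Trp53cor1, the lincRNA-p21 transcript beside Cdkn1a, was lower in KO M0 (-3.95, SE 0.72, adjusted p = 8.4e-05), and so was Slc19a2, a thiamine transporter (-3.37, SE 0.67, adjusted p = 0.00023). Gadd45a was higher in KO M1 (2.00, SE 0.56, adjusted p = 0.0175).

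With AP-3-84, Gdf15 rose in WT M1 from 13 ± 1.8 to 71.7 ± 22 CPM (2.46, SE 0.32, adjusted p = 0.000132), in ascites (1.08, SE 0.14) and in thio (0.94, SE 0.13), and in KO M0 (1.38, SE 0.34, adjusted p = 0.00411). In KO M1 it had 103 ± 23 CPM with vehicle and 111 ± 19 with the compound. The response of KO minus that of WT in M1 was called for 1 of the 17 other targets, more negative in KO. Over all 11779 genes, 1 was called for that difference. Sesn2 rose in KO M0 (1.21, SE 0.28) and thio (0.81, SE 0.21). Of the 18 regulators, 4 were higher and 2 lower in KO M0 vehicle, a share near the 33.2% of all genes. Hipk2, a kinase that phosphorylates p53, was higher (17.6 ± 5.5 in WT and 42.7 ± 3.4 CPM in KO, 1.28, SE 0.25, adjusted p = 0.000191), as were the acetyltransferases Crebbp (0.78, SE 0.20) and Kat5 (0.94, SE 0.24). Chek1, a kinase of replication stress, was lower (-2.25, SE 0.71, adjusted p = 0.0135). In M2 vehicle 0 of 18 regulators were called by edgeR. With the compound, 2 of 18 regulators were lower in KO M0, where 8.57% of all genes were called lower. In ascites 1 of 19 was higher, against 1.69% of all genes, and in thio 1 of 19, against 2.51%. Such small counts set no regulator apart from that background. In the WT marrow groups 0 of 18 were called.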

How the data were processed

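The 48 libraries of 3′ tags were deposited as 1 table of whole-number counts per gene. The submitters' processing notes name Bowtie2, RSEM and DESeq2, with no versions. Members and gene lists were chosen with earlier results of these data known. The 36 marrow libraries (11779 genes after edgeR's low-count filter) and the 12 peritoneal libraries (16955 genes) were fitted apart, with 1 mean per group. Tests were edgeR 4.0.16 robust quasi-likelihood tests with TMM factors in R 4.3.3, tested on simulated data first, with Benjamini-Hochberg adjustment over all genes in each of 23 comparisons. Alternatives were DESeq2 1.42.0, other scalings, no filter, only the groups compared, the replicate number as a block and each library left out. Every member was named. Members called for genotype or compound were given with their values, and up to 4 genes of each other pathway list by lowest p for KO minus WT in M0, with Gdf15, Gadd45a and Sesn2. Libraries were not treated as paired by replicate number. Of 72 pairs of groups, 3 had every same-number correlation above 0.1. Correlations between different numbers were not compared, so this does not settle whether libraries of the same number share a mouse or culture. Gene positions are from GENCODE (GRCm38), and strand use in counting was not given in the sources used here. A gene with 0 counts in a group was set to a floor of 3 counts over the group for folds.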

Additional observations from a re-analysis of the deposited data

Results flagged for a closer look

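A test of the difference itself separated the genotypes in 24 cases. For the change with AP-3-84 in M0, KO minus WT was 1.60 for Cdkn1a, 1.47 for Aen, 2.38 for Tnfrsf10b, 1.81 for Rrm2b, 1.88 for Tigar and -1.81 for Trp53inp1 (log2). Tnfrsf10b was lost without any 1 of 6 libraries (KO treated replicates 1 and 2, KO vehicle replicate 3, WT treated replicates 1 and 2, WT vehicle replicate 1). Rrm2b was lost without KO treated replicate 3, KO vehicle replicate 2, WT treated replicate 2 or WT vehicle replicate 2. Trp53inp1 was lost without any 1 library other than KO treated replicate 3.

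For the change from M0 to M1 with vehicle, KO minus WT was 2.04 for Mdm2, 3.04 for Cdkn1a, 3.25 for Plk2, 3.58 for Gtse1, 3.68 for Ckap2, 3.59 for Pmaip1, 2.36 for Tnfrsf10b, 1.79 for Rrm2b and 1.71 for Tigar. It was -1.88 for Sesn1 and -4.11 for Phlda3. The Phlda3 value rests on 0 counts in KO M1, so its size depends on the prior count and is no bound. Sesn1 was lost without KO M1 replicate 1 or 3 or WT M0 replicate 1, Tnfrsf10b without KO M1 replicate 3 or WT M0 replicate 1, and Rrm2b without replicate 2 of either M0 group. Gtse1 was lost without KO M0 replicate 3 or KO M1 replicate 2. Phlda3 was lost without KO M0 replicate 1, any KO M1 library or WT M1 replicate 3.

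For the change from M0 to M2 with vehicle, KO minus WT was 1.37 for Cdkn1a, 5.16 for Gtse1, 4.46 for Ckap2 and 1.99 for Tigar. It was -0.95 for Bbc3, -3.64 for Phlda3 and -1.36 for Dcxr. Cdkn1a was lost without KO M2 replicate 3, Phlda3 without KO M2 replicate 2, and Bbc3 without any 1 of 7 libraries (replicate 2 of all 4 groups, WT M0 replicate 1, and replicate 3 of both M2 groups).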

How the results depend on the processing

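Of 159 calls of a member in a comparison, 96 held under every alternative tried, 63 were lost under at least 1, 59 of them without 1 library, and 0 reversed. Scaling by total counts moved the median of all genes by over 0.1 in 9 of 23 comparisons, by -0.30 to 0.30. For M1 minus M0 in WT the median was then -0.30, and 15 members were called, Plk3 not among them. With no filter on low counts, AP-3-84 called 6 members in WT M1, 1 in WT M2, 1 in KO M2 and 5 in thio, and its response differed between genotypes for 1 member in M1 and 1 in M2. DESeq2 called 2 in WT M1 and 5 in thio. Fitting only the groups compared gave 4 in WT M1 and, for KO minus WT with vehicle in M2, 4. The cause was not tested. The number of genes called also varies with the fit, and its share is not given beside these counts. They show how the counts vary and nothing particular to the members. With 1 library left out, KO minus WT with vehicle called 6 to 12 members in M1 and 7 to 11 in M2, AP-3-84 called 2 to 6 in KO M0 and 0 to 1 in WT M1, its response differed for 3 to 7 in M0 and 0 to 1 in M2, and 4 to 9 changed from M0 to M1 in WT. The lowest in M1 was without KO replicate 3 and in M2 without KO replicate 2. The value of 1 in WT M1 was without vehicle replicate 3, and that of 1 in M2 without KO vehicle replicate 1. With the replicate number as a block, members called for KO minus WT with vehicle were 17, 10 and 11 in M0, M1 and M2, and Sesn1 in thio was the only call of a member that the block ended. Without the 3 libraries that stood apart, chosen after seeing the data, 8 members were called for KO minus WT with vehicle in M2 and 12 with the compound in M0. Marrow libraries had fewer counts than peritoneal ones, which limits their low genes such as Eda2r, Ddb2 and Perp.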
